A study of Homo sapiens with 12 samples.

Results

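The mitochondrial ribosomal protein genes were followed through 12 RNA sequencing libraries of 2 human cancer cell lines. Members were all gene symbols made of MRPL or MRPS, a number and at most one of the letters A, B or C, which took 78 of the 27968 symbols measured, 49 with an MRPL (large subunit) and 29 with an MRPS (small subunit) symbol. The groups, of 3 libraries each, were A549 in 3D, A549 in 2D, MDA-MB-231 in 3D and MDA-MB-231 in 2D. A549 comes from a cancer of the lung and MDA-MB-231 from a cancer of the breast, and both established lines were grown in DMEM with 10% FBS and given no treatment. The 3D cultures were in Matrigel, a basement membrane extract, and RNA was taken on day 4, while flat 2D cultures were taken at about 80% confluence. The series set out to profile how extracellular matrix regulates genes of cancer cells. Each group is 1 established line in 1 medium, so it stands for that line only, and growth in Matrigel is not separated from day of harvest or cell density.

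The mitochondrial ribosome makes the few proteins that mitochondrial DNA encodes, which are core subunits of the respiratory chain and ATP synthase. Its ribosomal RNA comes from mitochondrial DNA, whereas all of its proteins are encoded in the nucleus, translated in the cytosol and imported. Some of these proteins have counterparts in the bacterial ribosome, and others were added in mitochondria. All 78 members passed the filter on low counts, with 55.0 to 5522 expected counts per library.

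Whether replicate libraries stem from separate cultures is not in the labels, and the p-values therefore reflect only how far these samples spread, perhaps for technical reasons. Total expected counts ran from 5609327 to 28171901. The A549 3D libraries stood apart from the others: their biological coefficient of variation was 0.179, against 0.0368 to 0.0563 in the other groups, and one spread shared by all groups enters the tests. Fragments of the A549 libraries averaged 137 bases in 3D against 179 in 2D, and those of MDA-MB-231 averaged 184 in 3D against 212 in 2D. The ribosomal RNA share of A549 counts was 16.5%, 4.72% and 3.53% in the 3D libraries against a mean of 0.401% in 2D, so replicate 1 carries the A549 3D mean of 8.25%, and that of MDA-MB-231 counts was 4.84% in 3D against 1.15% in 2D. These measures moved with culture in both lines, and their part in the results below was not tested. KRT8, an epithelial keratin, averaged 6050 CPM in A549 3D and 1730 CPM in A549 2D, and 557 CPM in MDA-MB-231 3D and 367 CPM in MDA-MB-231 2D. The epithelial markers KRT18 and CDH1 were likewise higher in A549 than in MDA-MB-231 in both cultures. The epithelial marker EPCAM went the other way in 2D, with 4.03 CPM in A549 2D and 23.0 CPM in MDA-MB-231 2D. In 3D it averaged 13.7 CPM in A549 and 8.78 CPM in MDA-MB-231. VIM, a mesenchymal filament gene, averaged 690 CPM in A549 3D and 1000 CPM in A549 2D, and 3670 CPM in MDA-MB-231 3D and 2650 CPM in MDA-MB-231 2D, while the mesenchymal factor ZEB1 averaged 56.9 CPM in MDA-MB-231 3D and 93.0 CPM in MDA-MB-231 2D. Of 8 markers of leukocytes, endothelium and fibroblasts, CD3E and DCN were at 0 counts in all 12 libraries, and the group means of PTPRC, CDH5, COL1A2, PDGFRB and PECAM1 were at most 0.523, 0.348, 0.373, 3.58 and 4.17 CPM. CD68, a lysosomal protein used as a macrophage marker, averaged 19.5 CPM in A549 3D and 3.74 CPM in A549 2D, and 241 CPM in MDA-MB-231 3D and 99.9 CPM in MDA-MB-231 2D, and its part in the results was not tested. CPM below are TMM-normalised, and log2 fold changes are edgeR estimates with their SE.

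Per length, the members differed widely in level. The highest mean over the 12 libraries belonged to MRPL33, a small protein with a bacterial counterpart, at 366 TPM, followed by MRPL51, a mitochondria-specific large-subunit protein, at 281 TPM and MRPS24, a small-subunit protein, at 212 TPM. MRPS25, MRPL22 and MRPS14 were lowest, at 14.0, 16.2 and 17.2 TPM. MRPL33 was at 158 ± 33.9 TPM in A549 3D and 304 ± 3.96 TPM in A549 2D, and at 461 ± 26.1 TPM in MDA-MB-231 3D and 542 ± 38.5 TPM in MDA-MB-231 2D (SD, n = 3 each). MRPS25 was at 6.77 ± 0.705 TPM in A549 3D and 14.9 ± 0.531 TPM in A549 2D, and at 14.1 ± 1.76 TPM in MDA-MB-231 3D and 20.2 ± 1.82 TPM in MDA-MB-231 2D. MRPL22 and MRPS14 were not separable in MDA-MB-231 2D, at 23.5 ± 0.583 and 23.8 ± 1.64 TPM.

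The first comparison asked how the members differed between Matrigel and flat culture in A549. They moved in both directions by similar numbers. By edgeR's quasi-likelihood test, 24 of 78 were higher and 22 were lower in 3D at a Benjamini-Hochberg adjusted p of 0.05, which is 59.0% of members against 65.6% of all 15304 genes tested (34.1% higher and 31.5% lower). The median log2 fold change was -0.01, against 0.03 over all genes. By subunit, 17 large-subunit genes were higher and 12 lower, and 7 small-subunit genes were higher and 10 lower. The 3D libraries all lay above the 2D libraries for 20 members and below them for 27, and for 32.7% and 32.1% of all genes. The split depended on the scaling: it was 28 higher and 19 lower with RLE, 28 and 20 with the upper quartile and 28 and 21 with DESeq2, but 21 higher and 29 lower with an offset for effective length, 18 and 38 with the trend in GC content and length removed, and 4 and 62 on the log2(TPM + 1) scale, on which the median of all genes was itself -0.376.

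MRPL53, a mitochondria-specific protein of the large subunit, had the largest rise in A549. It stood at 65.6, 61.9 and 68.5 CPM in A549 3D against 22.3, 23.8 and 22.6 CPM in A549 2D, and the groups were far apart. Its log2 fold change was 1.52 ± 0.09 (edgeR adjusted p = 1.14e-09), 1.02 with the GC and length trend removed and 0.84 on the log2(TPM + 1) scale. MRPL54, another mitochondria-specific large-subunit protein, had 27.1, 18.6 and 22.8 CPM in A549 3D against 11.2, 9.41 and 11.5 CPM in A549 2D, a change of 1.11 ± 0.15 (edgeR adjusted p = 9.95e-06), without overlap. MRPL57 rose by 0.92 ± 0.09, with 39.1, 36.5 and 41.5 CPM in A549 3D against 21.1, 21.6 and 19.9 CPM in A549 2D. MRPL23, which lies at the exit of the nascent chain tunnel, averaged 54.3 ± 6.77 CPM in A549 3D and 29.0 ± 1.71 CPM in A549 2D (0.91 ± 0.11), a change of 0.25 that did not pass on the log2(TPM + 1) scale. MRPL41 averaged 54.5 ± 6.61 CPM in A549 3D and 29.8 ± 0.938 CPM in A549 2D (0.88 ± 0.09), but its change was -0.002 with the GC and length trend removed and 0.19, not called, on the log2(TPM + 1) scale. MRPS6, a small-subunit protein with a bacterial counterpart, averaged 42.3 ± 5.36 CPM in A549 3D and 20.0 ± 1.33 CPM in A549 2D (1.06 ± 0.10). MRPS6 is uncertain, because SLC5A3, a transporter gene that overlaps it, also rose in A549 (1.05 ± 0.17) while it fell in MDA-MB-231 (-1.68 ± 0.18), and reads of overlapping genes may be split between them.

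MRPL35, a large-subunit protein with a bacterial counterpart, had the largest fall. It stood at 45.3, 57.4 and 57.8 CPM in A549 3D against 115, 117 and 106 CPM in A549 2D. The highest 3D library lay well under the lowest 2D library, and the log2 fold change was -1.08 ± 0.09 (edgeR adjusted p = 6.13e-08). MRPL1, the counterpart of the bacterial protein that borders the site where transfer RNA leaves, had 16.2, 17.4 and 14.1 CPM in A549 3D against 24.5, 27.3 and 22.9 CPM in A549 2D (-0.69 ± 0.10). MRPL32, a protein that is cut to its mature form by a protease of the inner mitochondrial membrane, averaged 37.1 ± 1.76 CPM in A549 3D and 58.1 ± 3.02 CPM in A549 2D (-0.66 ± 0.08). MRPL3 averaged 78.1 ± 5.76 CPM in A549 3D and 120 ± 7.20 CPM in A549 2D (-0.62 ± 0.08). In the small subunit, MRPS5 averaged 64.4 ± 1.21 CPM in A549 3D and 98.0 ± 2.56 CPM in A549 2D (-0.60 ± 0.08), and MRPS25 averaged 32.5 ± 1.35 CPM in A549 3D and 49.1 ± 0.603 CPM in A549 2D (-0.59 ± 0.09). These 6 falls passed in each of the alternative settings that was run, and their libraries did not overlap between cultures.

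**Figure D1:**
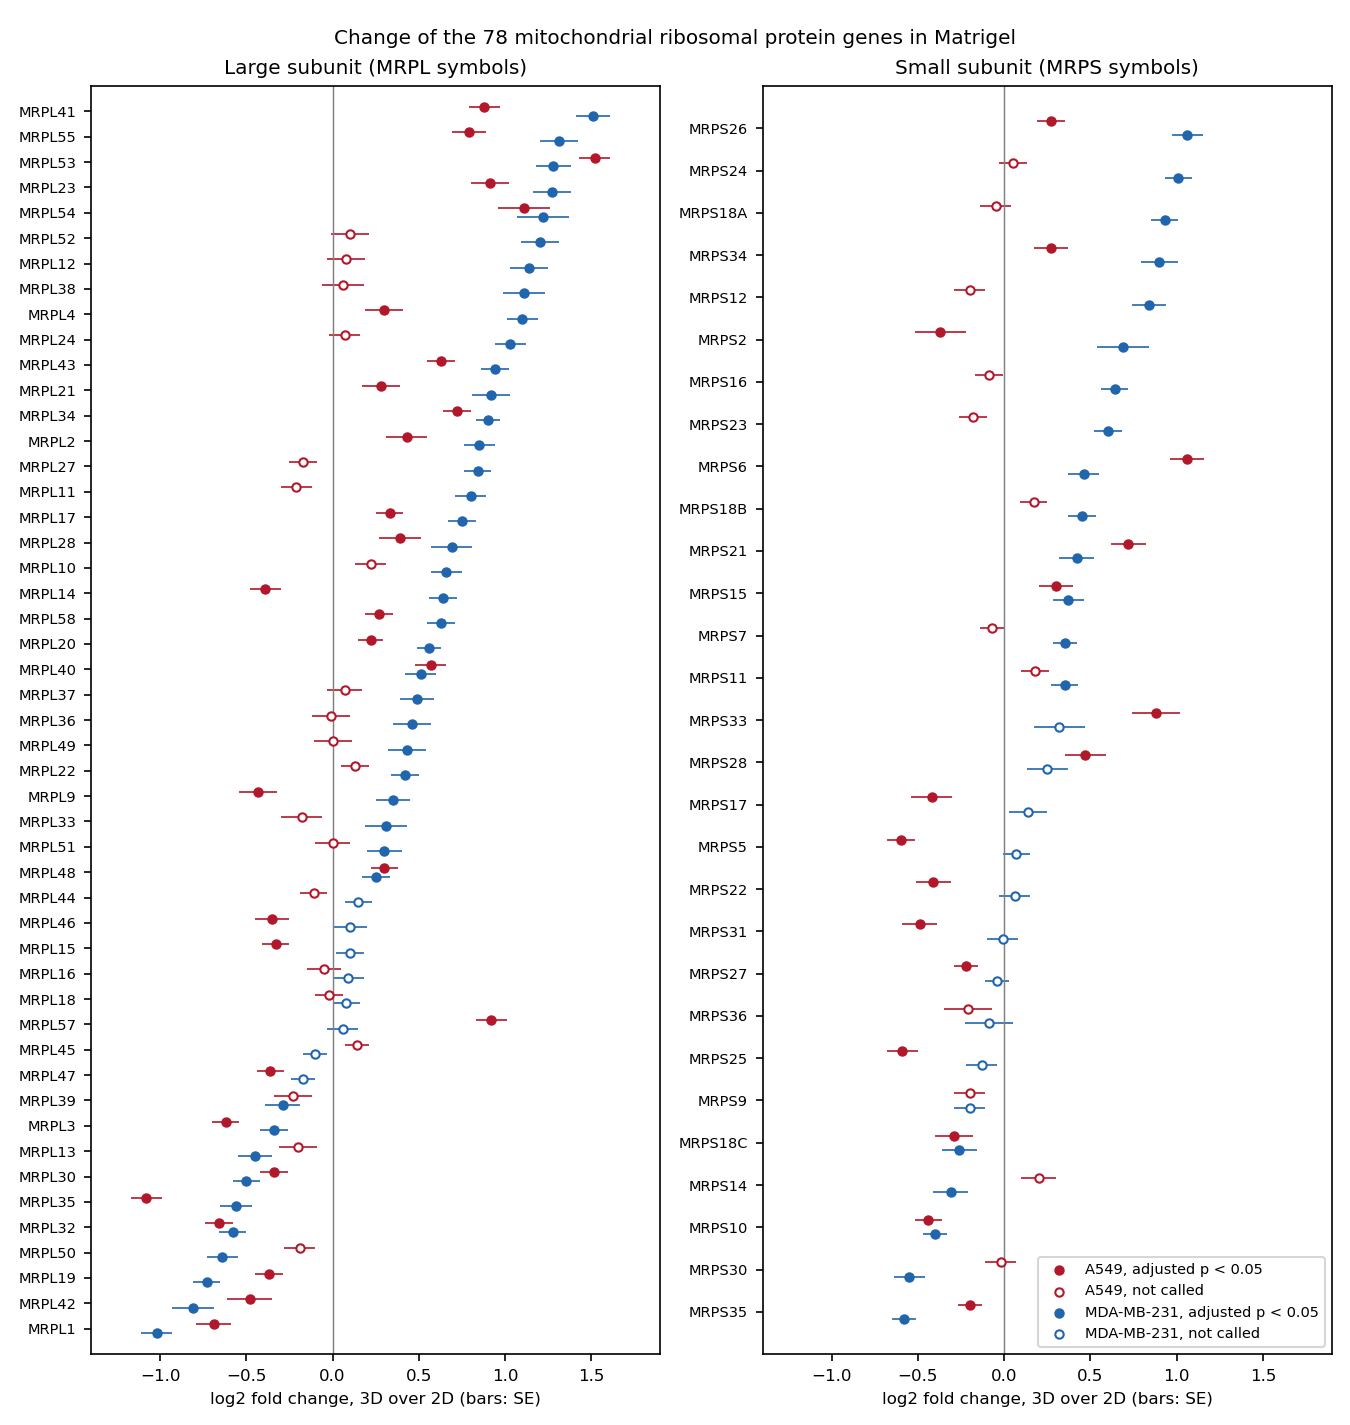
Log2 fold change of each of the 78 members, 3D over 2D, on the horizontal axis with its SE as a bar, for A549 (red) and MDA-MB-231 (blue), with large-subunit genes on the left and small-subunit genes on the right. Filled points passed an adjusted p of 0.05, which 46 members did in A549 and 60 in MDA-MB-231, and blue points lie more often right of 0 (45 of 78 called higher, 22 on the log2(TPM + 1) scale) than red points (24 and 4).

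The same question was then put to MDA-MB-231. More members were higher than lower: 45 of 78 passed the edgeR test as higher in 3D and 15 as lower, but 22 were higher and 32 lower on the log2(TPM + 1) scale, where the median of all genes was -0.252. The members called made up 76.9%, against 67.6% of all genes (33.4% higher and 34.2% lower), and the median log2 fold change was 0.36, against 0.0 over all genes and -0.08 for the members on the log2(TPM + 1) scale. With the trend in GC content and length removed, 28 were higher and 11 lower, with a median of 0.12, and only 19 of the 45 rises and 4 of the 15 falls were shared with the analysis without that correction. The 3D libraries all lay above the 2D libraries for 48 members and below them for 17, and for 37.2% and 38.1% of all genes. By subunit, 31 large-subunit genes were higher and 10 lower, and 14 small-subunit genes were higher and 5 lower.

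MRPL41, a mitochondria-specific protein of the large subunit, had the largest rise in MDA-MB-231. It stood at 25.4, 26.9 and 29.3 CPM in MDA-MB-231 3D against 9.07, 9.48 and 10.1 CPM in MDA-MB-231 2D. The groups did not overlap, and the log2 fold change was 1.51 ± 0.10 (edgeR adjusted p = 5.79e-09), but 0.33 with the GC and length trend removed. MRPL55, a large-subunit protein, had 14.6, 15.0 and 14.1 CPM in MDA-MB-231 3D against 5.11, 6.14 and 6.34 CPM in MDA-MB-231 2D (1.31 ± 0.11, and 0.27 with the trend removed). MRPL53 had 20.0, 23.1 and 25.1 CPM in MDA-MB-231 3D against 10.1, 8.90 and 9.20 CPM in MDA-MB-231 2D (1.28 ± 0.10, and 0.68 with the trend removed). MRPL52 had 95.9, 79.6 and 87.4 CPM in MDA-MB-231 3D against 39.3, 37.8 and 37.4 CPM in MDA-MB-231 2D (1.20 ± 0.11, and 0.56 with the trend removed). The rises of MRPL23 (1.27 ± 0.11) and MRPL54 (1.22 ± 0.15) did not pass with the trend removed, at 0.17 and 0.25.

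Among the falls in MDA-MB-231, MRPL1 stood at 24.4, 21.1 and 23.1 CPM in MDA-MB-231 3D against 46.2, 46.7 and 46.1 CPM in MDA-MB-231 2D. The log2 fold change was -1.02 ± 0.09 (edgeR adjusted p = 1.21e-07), and -0.52 with the GC and length trend removed. MRPL32 averaged 42.8 ± 3.23 CPM in MDA-MB-231 3D and 64.0 ± 2.40 CPM in MDA-MB-231 2D (-0.58 ± 0.08, and -0.70 with the trend removed). The other large falls did not hold with that trend removed. MRPL42 averaged 49.9 ± 5.21 CPM in MDA-MB-231 3D and 87.1 ± 6.89 CPM in MDA-MB-231 2D (-0.81 ± 0.12), but its change was 0.27 with the trend removed. MRPL19 averaged 50.9 ± 1.12 CPM in MDA-MB-231 3D and 84.4 ± 4.91 CPM in MDA-MB-231 2D (-0.73 ± 0.08, but 0.17). MRPL50 averaged 34.5 ± 1.44 CPM in MDA-MB-231 3D and 53.8 ± 2.81 CPM in MDA-MB-231 2D (-0.64 ± 0.09, but 0.12, not called). MRPS35 averaged 36.8 ± 1.76 CPM in MDA-MB-231 3D and 54.9 ± 2.12 CPM in MDA-MB-231 2D (-0.58 ± 0.07, but -0.06, not called).

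The GC content of a member's transcripts ran with its change in Matrigel, most clearly in MDA-MB-231. Across the 78 members, Pearson's r between GC content and log2 fold change was 0.84 in MDA-MB-231 and 0.47 in A549, and across 15066 genes with a GC value it was 0.49 and 0.07. The genes share the same libraries and are not independent replicates, so these are descriptions. Of the 39 members with GC content above the member median of 49.5%, 36 were higher and 0 lower in MDA-MB-231 3D, where 56.1% of all genes above that value were higher and 10.3% lower. Of the other 39 members, 9 were higher and 15 lower, where 11.8% of all genes were higher and 57.7% lower. In A549, 17 of the members above that GC content were higher and 5 lower, where 38.6% of all genes were higher and 27.4% lower. Of the others 7 were higher and 17 lower, where 29.8% and 36.0% of all genes were. The members were also short, with a median transcript length of 1177 bases against 2937 over all genes, and r with log2 length was -0.47 in MDA-MB-231 and -0.40 in A549, against -0.24 and -0.12 across all genes.

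**Figure D2:**
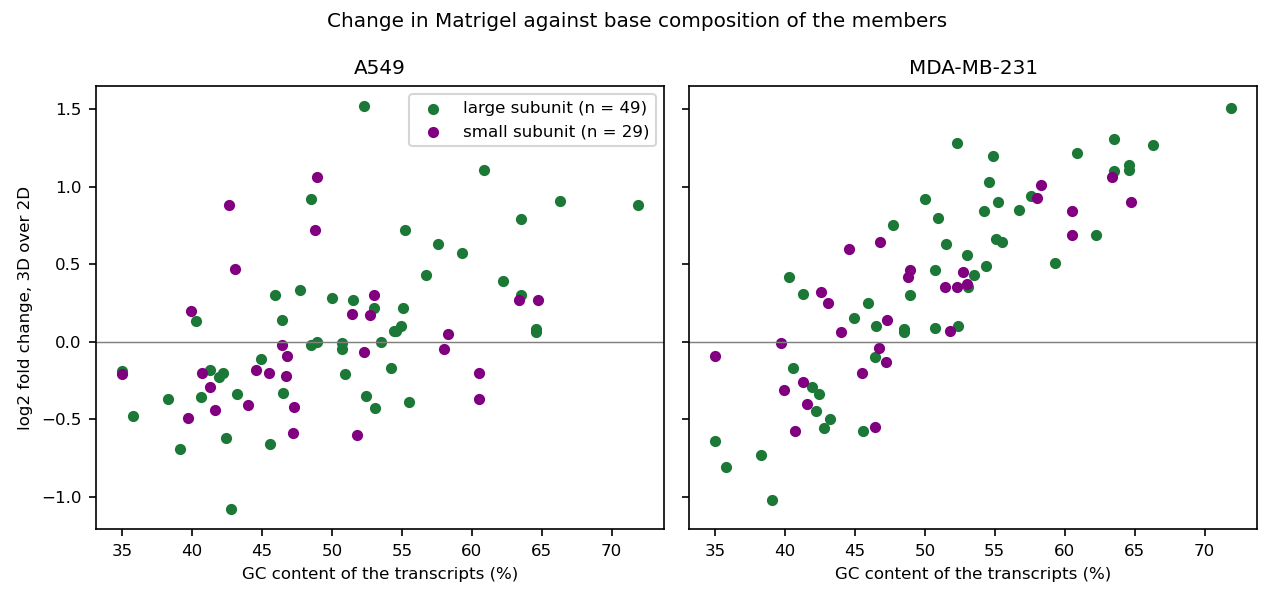
Log2 fold change of each member, 3D over 2D (vertical axis), against the GC content of its transcripts in percent (horizontal axis), for A549 on the left and MDA-MB-231 on the right, with large-subunit genes in green and small-subunit genes in purple. The points climb from left to right more tightly in MDA-MB-231 (r = 0.84) than in A549 (r = 0.47).

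Set side by side, 21 members were higher in 3D in both lines and 10 were lower in both, as were 15.3% and 16.1% of all genes tested. Those higher in both included MRPL53, MRPL54, MRPL23, MRPL41, MRPL55 and MRPS6, and those lower in both included MRPL1, MRPL32, MRPL35 and MRPL3. With the GC and length trend removed, 10 were higher in both and 7 lower in both, of which MRPL17, MRPL2, MRPL34, MRPL53 and MRPL55 and, among the falls, MRPL1 and MRPL32 were shared with the first count. The A549 libraries of MRPL2 overlapped between cultures, and its A549 change was -0.21 on the log2(TPM + 1) scale. The 6 members called in neither line were MRPL16, MRPL18, MRPL44, MRPL45, MRPS9 and MRPS36, and they were named after their values were seen. As the share of all genes called in neither line was not computed, this count is a description only. MRPL44 is a double-stranded RNA-binding protein by the tunnel exit, and MRPL45 faces the inner membrane there.

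Promoters are shown for 4 members that moved the same way in both lines by the uncorrected edgeR calls, and for 1 that separated the lines. Among the 4 is MRPL41, whose A549 change was -0.002 with the GC and length trend removed. A total of 69 of the 78 members had a RefSeq promoter window (build GRCh38.p14, from 250 bases before to 50 bases after a gene's start, some genes with several). Capitals mark matches to 4 motifs, searched on both strands: GCATGCG (NRF1), CCGGAAG (GABPA and other ETS factors), AAGATGG (YY1) and CACGTG (the MYC E-box). MRPL53 (chr2:74472631-74472930, minus strand) and MRPL41 (chr9:137551629-137551928, plus strand) were higher in both lines, MRPL1 (chr4:77862580-77862879, plus strand) and MRPL32 (chr7:42932126-42932425, plus strand) were lower in both, and MRPS12 (chr19:38930694-38930993, plus strand) was among the members most above MDA-MB-231 in A549 2D.
MRPL53: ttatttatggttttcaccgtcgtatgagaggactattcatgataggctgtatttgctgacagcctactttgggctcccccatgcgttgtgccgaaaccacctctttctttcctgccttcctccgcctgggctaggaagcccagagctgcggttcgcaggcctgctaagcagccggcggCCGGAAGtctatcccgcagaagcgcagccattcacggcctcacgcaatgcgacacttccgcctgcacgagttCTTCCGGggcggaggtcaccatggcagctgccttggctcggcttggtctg
MRPL41: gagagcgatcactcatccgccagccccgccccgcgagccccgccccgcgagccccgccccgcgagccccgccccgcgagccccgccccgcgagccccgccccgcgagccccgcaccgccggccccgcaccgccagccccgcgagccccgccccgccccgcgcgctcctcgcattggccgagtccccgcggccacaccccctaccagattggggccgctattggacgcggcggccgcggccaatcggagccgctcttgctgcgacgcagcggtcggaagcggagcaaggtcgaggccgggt
MRPL1: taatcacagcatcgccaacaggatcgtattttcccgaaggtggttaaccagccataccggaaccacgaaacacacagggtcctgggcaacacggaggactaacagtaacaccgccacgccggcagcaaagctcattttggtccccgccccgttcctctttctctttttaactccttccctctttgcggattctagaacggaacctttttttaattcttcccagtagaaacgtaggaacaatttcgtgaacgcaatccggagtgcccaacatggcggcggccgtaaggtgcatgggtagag
MRPL32: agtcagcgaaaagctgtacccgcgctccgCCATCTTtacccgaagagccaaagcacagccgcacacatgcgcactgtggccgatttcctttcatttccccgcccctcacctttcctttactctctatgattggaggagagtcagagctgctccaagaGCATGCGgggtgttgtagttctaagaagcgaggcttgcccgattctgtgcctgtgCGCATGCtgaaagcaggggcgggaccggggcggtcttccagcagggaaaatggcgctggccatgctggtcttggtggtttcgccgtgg
MRPS12: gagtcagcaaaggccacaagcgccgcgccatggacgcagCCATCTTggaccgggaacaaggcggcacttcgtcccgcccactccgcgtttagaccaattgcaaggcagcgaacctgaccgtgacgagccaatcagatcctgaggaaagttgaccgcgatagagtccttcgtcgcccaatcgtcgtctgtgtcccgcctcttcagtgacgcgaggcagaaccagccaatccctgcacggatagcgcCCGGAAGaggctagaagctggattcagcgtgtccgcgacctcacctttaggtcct
The window of MRPL53 held 2 matches to the ETS motif, 1 on each strand, and that of MRPL32 held 2 to the NRF1 motif and 1 to the YY1 motif. The window of MRPS12, one of 2 listed for that gene, held 1 ETS and 1 YY1 match. The windows of MRPL41 and MRPL1 held none of the 4, with a GC content of 80.7% and 51.7%. Counted over all windows of a gene, the ETS motif was in 43.5% of the 69 members against 12.2% of 27305 genes, the YY1 motif in 34.8% against 7.11%, the E-box in 13.0% against 8.77% and the NRF1 motif in 10.1% against 4.74%. Of 41 matched members higher and 13 lower in MDA-MB-231 3D, the ETS motif was in 20 and 4, the YY1 motif in 15 and 5, the E-box in 6 and 1 and the NRF1 motif in 5 and 2. A match is a description of the letters and not evidence that a factor binds there.

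**Figure D3:**
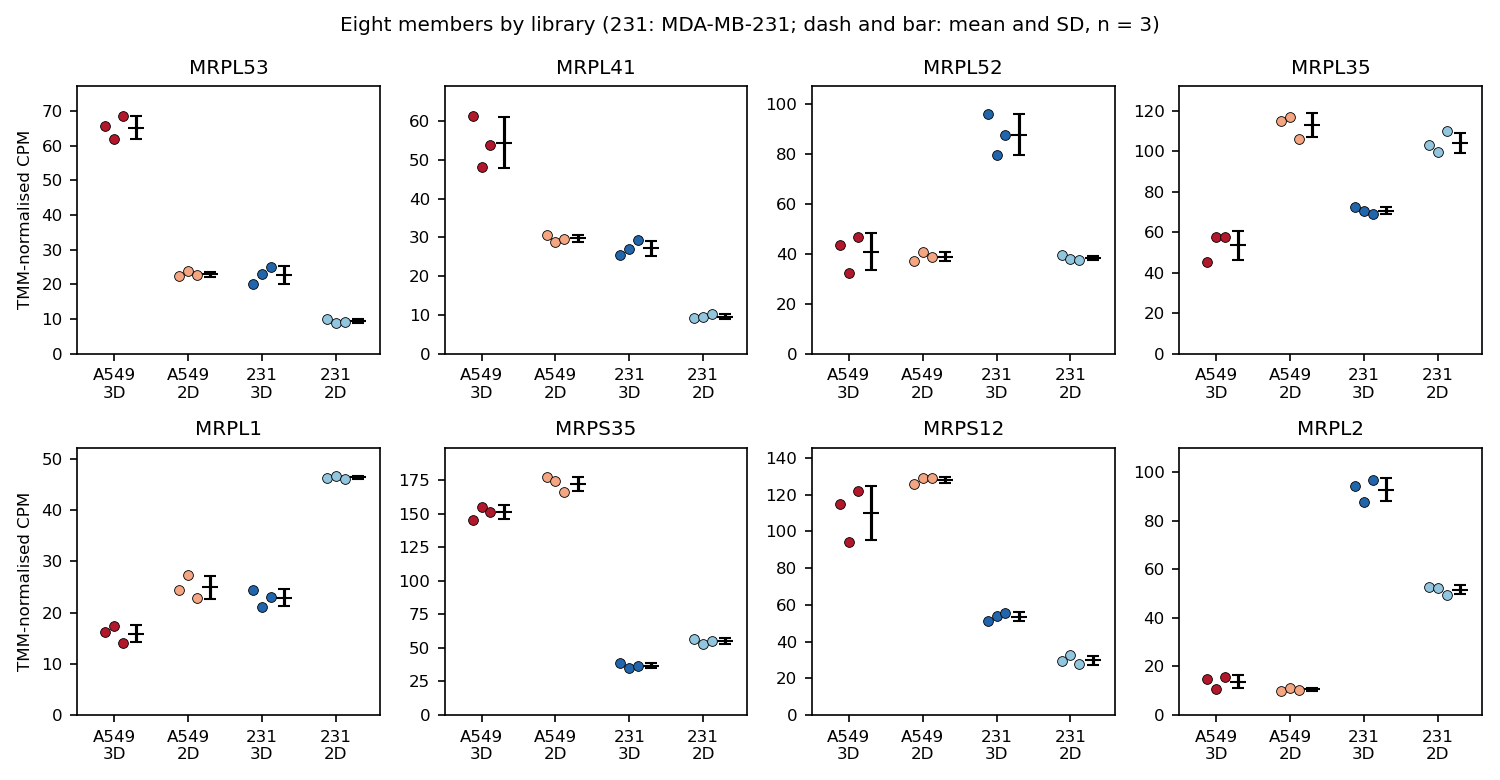
TMM-normalised CPM (vertical axis, from 0) of 8 members in each of the 12 libraries, by group along the horizontal axis, with the mean and SD of 3 libraries beside the points. MRPL53 and MRPL41 are higher and MRPL35 and MRPL1 lower in 3D than in 2D of both lines, MRPL52 is higher in 3D than in 2D of MDA-MB-231 while its A549 points overlap, and MRPS12, MRPS35 and MRPL2 separate the lines.

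The change in Matrigel itself differed between the lines for many members. The difference (A549 minus MDA-MB-231) was lower for 42 and higher for 9 of 78 by edgeR, 65.4% of members against 56.1% of all genes (29.3% higher and 26.7% lower), with a median of -0.33 against 0.07 over all genes. With the GC and length trend removed, only 28 of the 42 and 3 of the 9 kept their call. Of each set, 1 was then called the other way. MRPL52 had the most negative difference, at -1.10 ± 0.15 (edgeR adjusted p = 2.17e-05). It was at 43.4, 32.2 and 46.7 CPM in A549 3D against 37.1, 40.5 and 38.8 CPM in A549 2D, which overlap, while the MDA-MB-231 cultures were far apart. MRPL12, a stalk protein that also binds the mitochondrial RNA polymerase, averaged 44.1 ± 9.21 CPM in A549 3D and 41.7 ± 0.519 CPM in A549 2D, and 97.1 ± 7.97 CPM in MDA-MB-231 3D and 44.0 ± 1.37 CPM in MDA-MB-231 2D. Its difference was -1.06 ± 0.16, and its rise in MDA-MB-231 of 1.14 ± 0.11 was 0.14, not called, with the GC and length trend removed. MRPL38 differed by -1.05 ± 0.17, with 63.8 ± 12.8 CPM in A549 3D and 62.2 ± 1.70 CPM in A549 2D, and 53.7 ± 1.70 CPM in MDA-MB-231 3D and 24.9 ± 3.10 CPM in MDA-MB-231 2D. With the GC and length trend removed these differences were -0.62 for MRPL52, -0.35 for MRPL12 and -0.34 for MRPL38, all still called. The difference for MRPL57 ran the other way, at 0.85 ± 0.13, as its A549 rise met a change of 0.06 ± 0.09 in MDA-MB-231 that did not pass. MRPS6, uncertain as above, differed by 0.60 ± 0.13, and MRPS30, a large-subunit protein despite its symbol, by 0.53 ± 0.13. For MRPS33 the difference of 0.56 ± 0.21 was lost on the log2(TPM + 1) scale (0.36), with the GC and length trend removed (0.09), without A549 3D replicate 3 (0.50), without A549 2D replicate 3 (0.47), without MDA-MB-231 3D replicate 1 or 2 (0.54 and 0.53) and without MDA-MB-231 2D replicate 1 or 3 (0.57 and 0.54).

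Calls of opposite sign in the lines were made for 3 members, each lower in A549 3D and higher in MDA-MB-231 3D, and for 0 members the other way. The share of all genes with opposite calls was not computed, so these counts are a description only. MRPL14, a large-subunit protein at the face that meets the small subunit, was at 25.6, 26.0 and 31.7 CPM in A549 3D against 37.3, 38.0 and 35.7 CPM in A549 2D, without overlap. In MDA-MB-231 it was at 112, 111 and 120 CPM in 3D against 73.9, 74.0 and 71.2 CPM in 2D. Its changes were -0.39 ± 0.09 and 0.64 ± 0.08, and the difference was -1.03 ± 0.12 (edgeR adjusted p = 3.61e-06). MRPL9 changed by -0.43 ± 0.11 in A549 and 0.35 ± 0.10 in MDA-MB-231, a difference of -0.78 ± 0.15. MRPS2 changed by -0.37 ± 0.15 in A549 and 0.69 ± 0.15 in MDA-MB-231, a difference of -1.06 ± 0.21. With the GC and length trend removed the MDA-MB-231 changes of all 3 were below 0 and not called, at -0.06 for MRPL14, -0.06 for MRPL9 and -0.05 for MRPS2, while the 3 differences still passed, at -0.56 for MRPL14, -0.45 for MRPL9 and -0.39 for MRPS2. The A549 call of MRPS2 lay close to the threshold (edgeR adjusted p = 0.0468) and was lost without A549 3D replicate 2 (-0.22). It was also lost, at a similar size of change, without any one of the A549 2D replicates (-0.40, -0.38 and -0.37), without MDA-MB-231 3D replicate 2 or 3 (-0.38 each) and without MDA-MB-231 2D replicate 1 (-0.38).

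The lines were then compared within each culture. In 2D, 38 members were higher and 23 lower in A549 than in MDA-MB-231 by edgeR, 78.2% against 81.6% of all genes (42.8% higher and 38.8% lower), with 31 and 31 once the GC and length trend was removed and 12 and 56 on the log2(TPM + 1) scale. In 3D, 26 were higher and 36 lower, 79.5% against 83.0% of all genes (43.9% higher and 39.2% lower), with 3 and 66 on the log2(TPM + 1) scale. On that scale the medians of all genes were -0.565 in 2D and -0.636 in 3D. A total of 23 members were higher in A549 in both cultures and 21 lower in both, as were 32.3% and 29.2% of all genes.

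MRPS12, the small-subunit protein of the decoding centre, was at 126, 129 and 129 CPM in A549 2D against 29.6, 32.5 and 27.7 CPM in MDA-MB-231 2D, higher by 2.09 ± 0.10 on the log2 scale (edgeR adjusted p = 9.63e-12). In 3D it was at 115, 94.1 and 122 CPM in A549 against 51.2, 53.9 and 55.8 CPM in MDA-MB-231 (1.05 ± 0.09). The lines were apart in both cultures, less so in 3D. MRPS12 starts beside SARS2, a mitochondrial seryl-tRNA synthetase gene on the other strand, which averaged 40.4 ± 1.10 CPM in A549 2D and 20.1 ± 1.39 CPM in MDA-MB-231 2D. MRPS26 averaged 58.1 ± 1.12 CPM in A549 2D and 13.6 ± 0.551 CPM in MDA-MB-231 2D (2.09 ± 0.09, and 1.31 ± 0.09 in 3D). MRPS35 averaged 172 ± 5.44 CPM in A549 2D and 54.9 ± 2.12 CPM in MDA-MB-231 2D (1.65 ± 0.07), and in 3D its difference of 2.04 ± 0.07 was the highest of the 78. MRPL41 was higher in A549 2D by 1.64 ± 0.10, but lower by 0.22 with the GC and length trend removed (-0.22). MRPL53 was higher in A549 3D by 1.52 ± 0.09. MRPS33 was higher in A549 3D by 1.11 ± 0.15, a difference that did not pass with the trend removed (0.23) or on the log2(TPM + 1) scale (0.03).

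MRPL2, which in bacteria lies near the peptidyl transferase centre, had the lowest ratio of A549 to MDA-MB-231. It was at 10.1, 11.3 and 10.3 CPM in A549 2D against 52.9, 52.4 and 49.4 CPM in MDA-MB-231 2D (-2.28 ± 0.10), and at 14.8, 10.7 and 15.7 CPM in A549 3D against 94.2, 87.6 and 96.9 CPM in MDA-MB-231 3D (-2.70 ± 0.11, edgeR adjusted p = 1.89e-12). MRPS10 averaged 66.6 ± 0.244 CPM in A549 2D and 229 ± 10.4 CPM in MDA-MB-231 2D (-1.78 ± 0.08, and -1.82 ± 0.08 in 3D). MRPL4 was lower in A549 by 1.38 on the log2 scale in 2D (-1.38 ± 0.10) and by 2.17 in 3D (-2.17 ± 0.11), MRPL34 by 1.41 in 2D (-1.41 ± 0.08) and MRPL14 by 2.01 in 3D (-2.01 ± 0.09).

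**Figure D4:**
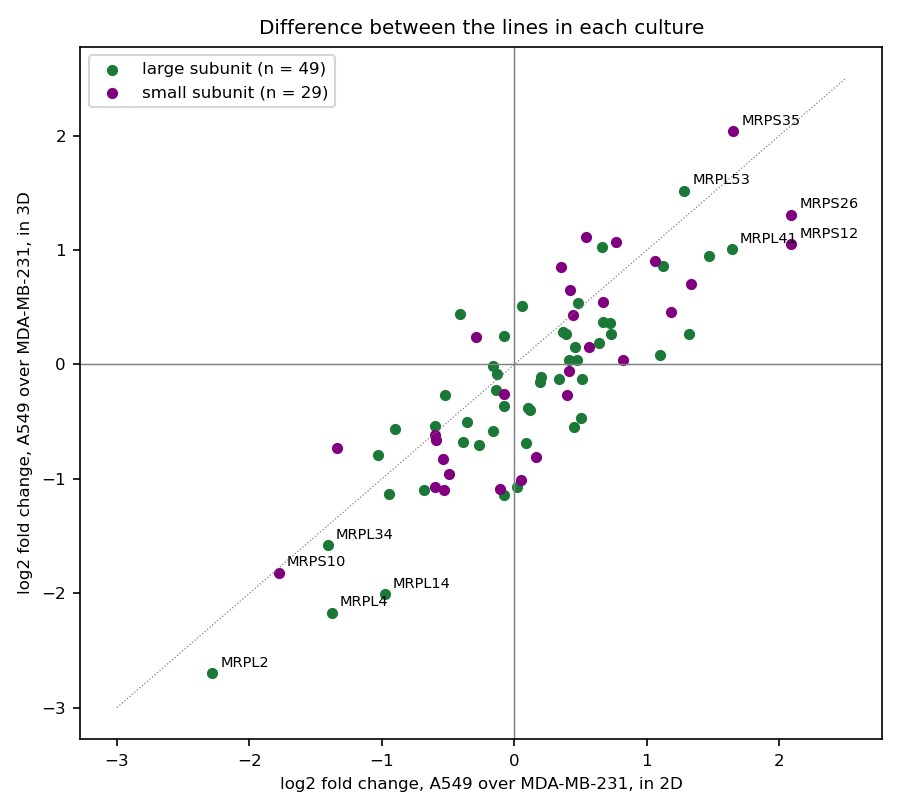
Log2 fold change of each member, A549 over MDA-MB-231, in 2D (horizontal axis) and in 3D (vertical axis), with large-subunit genes in green and small-subunit genes in purple and a dotted line of equal change. MRPS35 (1.65 in 2D and 2.04 in 3D) and MRPL2 (-2.28 and -2.70) mark the ends, and the 2 axes use different libraries.

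Summed over the members, the normalised level was 4131, 4117 and 4488 CPM in A549 3D against 4395, 4390 and 4234 CPM in A549 2D, which overlap. In MDA-MB-231 it was 4830, 4839 and 4893 CPM in 3D against 4041, 3985 and 4005 CPM in 2D, which do not. On the per-length scale the order in MDA-MB-231 turned round, with a sum of 8170 ± 15.5 TPM in 3D and 8494 ± 78.9 TPM in 2D, and A549 had 3641 ± 405 TPM in 3D and 5302 ± 38.8 TPM in 2D. Small structural RNA genes held 49.3% of A549 TPM in 3D against 33.8% in 2D, and for MDA-MB-231 the shares were 2.79% in 3D against 0.584% in 2D. With those genes left out of the total, the members made up 0.717% of A549 TPM in 3D against 0.801% in 2D, and for MDA-MB-231 0.841% in 3D against 0.854% in 2D. In bulk samples fewer cells of a kind and less RNA per cell cannot be told apart.

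The 2 subunits were set against each other by these sums and by their medians. Large-subunit genes held 1.82 ± 0.0656 times the summed TPM of small-subunit genes in A549 3D and 1.78 ± 0.0300 times in A549 2D, and 2.09 ± 0.0252 times in MDA-MB-231 3D and 1.97 ± 0.0100 times in MDA-MB-231 2D. The A549 libraries overlapped between cultures, while the MDA-MB-231 libraries, at 2.07, 2.09 and 2.12 in 3D against 1.96, 1.98 and 1.97 in 2D, did not. The median log2 fold change of large-subunit genes exceeded that of small-subunit genes by 0.14 in A549 (0.06 against -0.09) and by 0.15 in MDA-MB-231 (0.46 against 0.32), and by 0.04 in each line with the GC and length trend removed. Between lines in 2D it was lower by 0.30 (0.10 against 0.40, a difference of -0.30). Counting the large-subunit proteins MRPS18A and MRPS30 by structure and leaving out MRPS36, which is now known as a component of the 2-oxoglutarate dehydrogenase complex, gave 0.13 in both lines. In MDA-MB-231, 12 of 19 mitochondria-specific large-subunit genes were higher and 3 lower, and 19 of 30 with a bacterial counterpart were higher and 7 lower. In A549 the same groups had 8 higher and 2 lower, and 9 higher and 10 lower, but 3 and 13, and 0 and 24, on the log2(TPM + 1) scale. Across all genes tested, 33.4% were higher and 34.2% lower in MDA-MB-231, and 34.1% and 31.5% in A549. The difference between these gene groups was not tested.

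**Figure D5:**
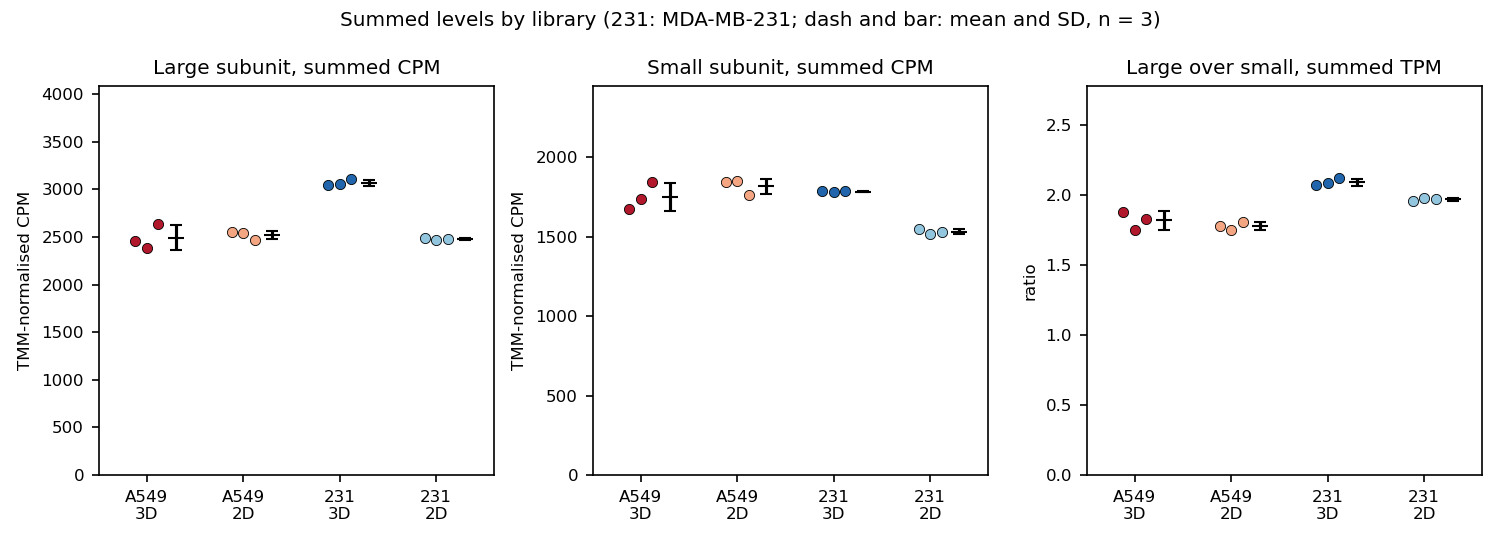
Summed TMM-normalised CPM of the large-subunit genes (left) and small-subunit genes (middle), and the ratio of their summed TPM (right), in each library by group, with the mean and SD of 3 libraries. MDA-MB-231 3D libraries lie above MDA-MB-231 2D libraries in all 3 panels, whereas their total TPM over all members lies below (8170 against 8494), and the A549 cultures overlap.

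The stalk, which recruits translation factors, is made of MRPL10, MRPL11 and MRPL12. All 3 were higher in MDA-MB-231 3D, by 0.66, 0.80 and 1.14, with the median at 0.20 once the GC and length trend was removed, and 0 of 3 were called in A549. Of 5 proteins at the exit of the nascent chain and the membrane contact, 3 were higher and 0 lower in MDA-MB-231, and MRPL23 alone was called in A549. Calls in either direction took 67.6% of all genes in MDA-MB-231 and 65.6% in A549. The 3 genes that are related to bacterial S18 parted from each other. MRPS18A, which sits in the large subunit, was at 58.1, 58.1 and 62.4 CPM in MDA-MB-231 3D against 30.8, 32.8 and 30.2 CPM in MDA-MB-231 2D (0.93 ± 0.08), and changed by -0.05 ± 0.09 in A549, not called, a difference of -0.98 ± 0.12. With the GC and length trend removed the MRPS18A values were 0.17 in MDA-MB-231 and -0.36 for the difference. MRPS18B changed by 0.45 ± 0.08 in MDA-MB-231, but by 0.04, not called, with the GC and length trend removed and 0.02 on the log2(TPM + 1) scale. Its A549 change of 0.17 ± 0.08 did not pass. MRPS18C changed by -0.26 ± 0.10 in MDA-MB-231 and -0.29 ± 0.11 in A549. Both MRPS18C calls were lost when single libraries were left out: in MDA-MB-231 without 3D replicate 2 or 3 (-0.19 and -0.23) or 2D replicate 1 or 2 (-0.25 and -0.24), and in A549 without 3D replicate 1 or 3 (-0.24 and -0.25) or any one 2D replicate (-0.30, -0.30 and -0.29). The A549 call was also lost with RLE scaling, upper-quartile scaling and DESeq2 (-0.26 each). MRPS18B is listed with 7 transcripts. MRPS36 was called in neither line.

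Genes that work with the mitochondrial ribosome are given beside the members, with no test between lists. The shares of all genes tested were 34.1% higher and 31.5% lower in A549, and 33.4% and 34.2% in MDA-MB-231. Of 5 mitochondrial ribosomal proteins with other symbols, 3 were higher and 1 lower in MDA-MB-231 and 2 were higher and 0 lower in A549. AURKAIP1, of the small subunit, averaged 71.8 ± 4.52 CPM in MDA-MB-231 3D and 26.6 ± 0.379 CPM in MDA-MB-231 2D (1.43 ± 0.08, and 0.37 with the GC and length trend removed), and PTCD3, also of the small subunit, averaged 87.6 ± 6.71 CPM in MDA-MB-231 3D and 163 ± 8.67 CPM in MDA-MB-231 2D (-0.89 ± 0.08, and -0.35 with the trend removed). GADD45GIP1, of the large subunit, changed by 1.26 ± 0.10 in MDA-MB-231 (0.32 with the trend removed) and 0.73 ± 0.11 in A549, and the A549 change was 0.10, not called, on the log2(TPM + 1) scale. Of 25 genes of assembly and ribosomal RNA modification, 4 were higher and 13 lower in A549 (median -0.31), and 13 were higher and 6 lower in MDA-MB-231 (median 0.23, but -0.04 with the GC and length trend removed and -0.19 on the log2(TPM + 1) scale). FASTKD2, which is needed for the large ribosomal RNA, fell by 0.57 in A549 (-0.57 ± 0.09) and by 1.26 in MDA-MB-231 (-1.26 ± 0.09, and -0.48 with the trend removed). Of 15 translation factors, 4 were higher and 3 lower in A549 and 3 were higher and 8 lower in MDA-MB-231 (6 and 2 with the trend removed). TUFM, the mitochondrial elongation factor Tu, changed by 0.70 ± 0.08 in MDA-MB-231 (0.20 with the trend removed and 0.27 on the log2(TPM + 1) scale) and by 0.01 ± 0.08 in A549, not called. Of 19 mitochondrial tRNA synthetases, 4 were higher and 8 lower in A549 and 7 were higher and 5 lower in MDA-MB-231. The synthetases called made up 63.2% in each line, against 65.6% of all genes in A549 and 67.6% in MDA-MB-231.

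Of 18 genes of mitochondrial transcription and RNA processing, 0 were higher and 14 lower in A549, with a median of -0.41, and the count was 0 and 14 with each of the other 2 count scalings and with the GC and length trend removed. In MDA-MB-231, 5 were higher and 10 lower (6 and 7 with the trend removed). Over all genes tested, 34.1% were higher and 31.5% lower in A549, and 33.4% and 34.2% in MDA-MB-231. TFAM, which packages mitochondrial DNA and starts its transcription, was at 55.4, 62.7 and 45.3 CPM in A549 3D against 140, 141 and 131 CPM in A549 2D (-1.36 ± 0.11, edgeR adjusted p = 2.99e-08). In MDA-MB-231 it was at 48.1, 41.6 and 41.6 CPM in 3D against 107, 93.8 and 109 CPM in 2D (-1.24 ± 0.11, and -0.38 with the trend removed), so the cultures were apart in both lines. Of 10 regulators of nuclear genes for mitochondria, 2 were higher and 4 lower in A549 and 4 were higher and 3 lower in MDA-MB-231. The 2 higher in A549 include PPARGC1A, which was near the floor, at 0.125, 0 and 0.158 CPM in A549 3D. It was at 0 CPM in each A549 2D library, and its A549 change was 0.02, not called, on the log2(TPM + 1) scale. MYC, a growth regulator that binds E-boxes, averaged 58.3 ± 7.85 CPM in A549 3D and 133 ± 3.75 CPM in A549 2D (-1.17 ± 0.10), and 196 ± 8.20 CPM in MDA-MB-231 3D and 137 ± 12.1 CPM in MDA-MB-231 2D (0.52 ± 0.09, and 0.11, not called, on the log2(TPM + 1) scale). PPRC1, a co-activator of nuclear genes for mitochondria, changed by -0.78 ± 0.14 in A549 and 0.58 ± 0.13 in MDA-MB-231 (0.16, not called, on the log2(TPM + 1) scale). ESRRA, a nuclear receptor of the same genes, changed by 1.10 ± 0.09 in MDA-MB-231 (0.45 with the trend removed and 0.66 on the log2(TPM + 1) scale) and by 0.04 ± 0.10, not called, in A549. GABPB1, a subunit of the ETS factor GABP, fell by 1.11 in A549 (-1.11 ± 0.10) and by 0.89 in MDA-MB-231 (-0.89 ± 0.10, and -0.35 with the trend removed). PPRC1 was described after its values were seen.

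The cytosolic ribosome and the respiratory chain gave 2 larger lists beside the members. Among all genes tested, 33.4% were higher and 34.2% lower in MDA-MB-231, and 34.1% and 31.5% in A549. Of 79 cytosolic ribosomal protein genes, 75 were higher and 0 lower in MDA-MB-231, with a median of 0.74 (38 and 5 on the log2(TPM + 1) scale), whereas 32 were higher and 13 lower in A549, which turned to 10 and 49 with the GC and length trend removed and 1 and 68 on the log2(TPM + 1) scale. Of 75 nuclear genes for respiratory chain subunits, 58 were higher and 4 lower in MDA-MB-231 (median 0.54), and 55 were higher and 0 lower in A549 (median 0.38), but 27 and 17 with the trend removed and 7 and 36 on the log2(TPM + 1) scale. NDUFB11, a subunit of complex I, changed by 1.87 ± 0.10 in A549 and 1.11 ± 0.09 in MDA-MB-231 (0.30 with the trend removed). The members' medians of -0.01 in A549 and 0.36 in MDA-MB-231 were below those of both lists, except that with the trend removed the A549 median was -0.15 for members and -0.27 for the cytosolic list. No difference between lists was tested.

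Some members share sequence or position with other entries of the tables. The read-through gene URGCP-MRPS24 held 0 to 37.4 expected counts per library, and the pseudogenes MRPL45P2 and MRPS31P5 held 15.31 to 50.11 and 9.47 to 135.28. MRPS24, MRPL45 and MRPS31 are therefore uncertain to that extent, as is MRPL42 beside MRPL42P5, which had at most 6.87. MRPL23 with MRPL23-AS1 (at most 4 counts) and MRPS30 with MRPS30-DT (at most 6 counts) are uncertain because the strand setting of the counting is not given in the sources used here. Of the members with a promoter window, 24 had a neighbour starting in an overlapping window on the other strand, in 1 case another member, MRPL46 with MRPS11. MRPL46 changed by -0.35 ± 0.10 in A549, and MRPS11 by 0.18 ± 0.08, which was not called.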

How the data were processed

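RNA of 12 libraries was sequenced from stranded total RNA depleted of ribosomal RNA, per the labels' protocols. The authors deposited, per library, RSEM expected counts per gene symbol, made on hg19 per the submitters' processing notes. The deposited files also hold TPM, FPKM (not used in any result), gene length and effective length. Which RSEM version, aligner and annotation were used, and how strand was set, is not given in the sources used here. The files held 0 columns of other series.

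Expected counts were rounded, filtered with filterByExpr, scaled by TMM and fitted with edgeR 4.0.16 (R 4.3.3) as 4 group means over 12 libraries, with quasi-likelihood tests of 5 contrasts and Benjamini-Hochberg adjustment over 15304 genes at 0.05. The SE is the log2 fold change divided by the root of F. Alternatives were DESeq2 1.42.0, scaling by RLE or the upper quartile, testing without a filter or with one of 1 CPM in 3 libraries, limma 3.58.1 on the deposited TPM as log2(TPM + 1), an effective length offset, only the groups compared, a replicate block, and each library left out. Removal of a GC and length trend (splines of 5 degrees of freedom) was added after seeing the data, with GC content read from GENCODE transcripts matched by RefSeq ID. The fit was tested on simulated counts. Of simulated log2 changes of 0.5, 12.9% (difference between lines) to 58.3% (MDA-MB-231 3D against 2D) were recovered. False calls made up 3.97% to 7.83% of calls. The simulation gave all groups the same spread for a gene, so it did not mimic the wider spread of A549 3D. It also changed only 200 genes per comparison, whereas 56.1% to 83.0% of genes were called in the data. Its rates therefore need not hold for the tests on the data. An exact permutation test of 3 against 3 libraries cannot go below p = 0.10, so none was used. Single genes of the mitochondrial ribosome were named by size of change (6 each way per culture comparison, 4 each way for the others), opposite signs, highest and lowest TPM, and the MRPS18 paralogs with MRPS36, and up to 4 genes of each other list by smallest p. Stalk genes, members called in neither line, and neighbours were added after seeing values. Members and gene lists were chosen with earlier results of these data known. Sequences are RefSeq promoter windows of GRCh38.p14, and no hg19 coordinates are given. Counting 21076 to 113780 member counts per library limits precision least for the abundant members and most in A549 3D replicate 2, the shallowest library.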

Additional observations from a re-analysis of the deposited data

Results flagged for a closer look

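Of 40 named members, 30 changed differently in Matrigel between A549 and MDA-MB-231 by edgeR's interaction contrast, with Benjamini-Hochberg adjustment over all genes. Some were named for a large difference or for opposite signs in the lines, so this share cannot be set against that of all genes. Over all 78 members 65.4% were called, where 56.1% of all genes were. The differences (A549 minus MDA-MB-231, log2) below 0 in the large subunit were -1.10 for MRPL52, -1.06 for MRPL12, -1.05 for MRPL38, -1.03 for MRPL14, -0.79 for MRPL4, -0.78 for MRPL9, -0.63 for MRPL41, -0.52 for MRPL55, -0.51 for MRPL35, -0.48 for MRPL33, -0.42 for MRPL2, -0.29 for MRPL22 and -0.28 for MRPL3. Those in the small subunit were -1.06 for MRPS2, -1.04 for MRPS12, -0.98 for MRPS18A, -0.96 for MRPS24, -0.78 for MRPS26, -0.67 for MRPS5, -0.47 for MRPS25 and -0.29 for MRPS18B. Above 0 were MRPL57 (0.85), MRPS6 (0.60), MRPS33 (0.56), MRPS30 (0.53), MRPS14 (0.51), MRPL50 (0.45), MRPS35 (0.38), MRPL19 (0.36) and MRPL1 (0.34).

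Several of the smaller differences lost their call when single libraries were left out, while their estimates kept their direction. With all libraries their edgeR adjusted p lay near the threshold, from 0.0223 (MRPL33) to 0.0494 (MRPL1). The MRPL1 difference was lost without A549 3D replicate 1 or 2 (0.30 and 0.27), A549 2D replicate 1 or 3 (0.32 and 0.28), MDA-MB-231 3D replicate 2 or 3 (0.28 and 0.34) or any one MDA-MB-231 2D replicate (0.34, 0.33 and 0.34). The MRPL2 difference was lost without A549 2D replicate 2 (-0.37), MDA-MB-231 3D replicate 3 (-0.39) or MDA-MB-231 2D replicate 3 (-0.39). The MRPL33 difference was lost without A549 3D replicate 1 (-0.35), MDA-MB-231 3D replicate 2 (-0.45) or MDA-MB-231 2D replicate 2 (-0.43). The MRPL22 difference was lost without A549 3D replicate 1 (-0.27), A549 2D replicate 1 or 2 (-0.25 and -0.30), MDA-MB-231 3D replicate 2 or 3 (-0.30 and -0.27) or any one MDA-MB-231 2D replicate (-0.31, -0.28 and -0.30). The MRPL3 difference was lost without A549 3D replicate 1 (-0.22), A549 2D replicate 1 or 2 (-0.26 and -0.27), MDA-MB-231 3D replicate 1 or 2 (-0.25 and -0.31) or any one MDA-MB-231 2D replicate (-0.29, -0.27 and -0.30). The MRPS18B difference was lost with RLE scaling (-0.27), upper-quartile scaling (-0.26), no filter (-0.30), the 1 CPM filter (-0.28), the GC and length trend removed (0.03) and a replicate block (-0.29). It was also lost without A549 3D replicate 1 (-0.22), without any one A549 2D replicate (-0.27, -0.30 and -0.31), without MDA-MB-231 3D replicate 2 or 3 (-0.29 and -0.28) and without MDA-MB-231 2D replicate 1 or 3 (-0.28 and -0.24). The shorter fragments and higher ribosomal RNA share of the 3D libraries differed in size between the lines, and their part in these differences was not tested. No group had more than 3 libraries, so single libraries were not screened for outlying values.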

How the results depend on the processing

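Of 114 results on the 40 named members, 61 kept their direction and call under every alternative run, and 53 lost either under at least one. On the log2(TPM + 1) scale the counts higher and lower were 4 and 62 in A549 3D (median -0.64), 22 and 32 in MDA-MB-231 3D (-0.08), 4 and 48 for the difference (-0.51), 12 and 56 for A549 against MDA-MB-231 in 2D (-0.68) and 3 and 66 in 3D (-1.14, large minus small subunit -0.26). With the GC and length trend removed, A549 3D had 38 lower (median -0.15, large minus small 0.04), MDA-MB-231 3D had 28 higher (0.12 and 0.04), the difference had a median of -0.20 (large minus small 0.15), and A549 against MDA-MB-231 had medians of 0.04 in 2D and -0.26 in 3D (large minus small -0.49). The effective length offset gave medians of -0.08 in A549 3D, 0.11 between lines in 2D and -0.18 in 3D, and upper-quartile scaling gave -0.06 in 3D.

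Signs that turned are listed here for the named members only. They turned with the GC and length trend removed in MDA-MB-231 3D for MRPL3 (0.01), MRPL9 (-0.06), MRPL14 (-0.06), MRPL19 (0.17), MRPL42 (0.27), MRPL50 (0.12), MRPL51 (-0.10), MRPS2 (-0.05), MRPS10 (0.11), MRPS12 (-0.04) and MRPS14 (0.35). They also turned for MRPL41 in A549 3D (-0.002) and between lines in 2D (-0.22), and for the differences of MRPL1 (-0.10), MRPL2 (0.13), MRPL19 (-0.42), MRPL50 (-0.11), MRPL55 (0.03), MRPS14 (-0.07), MRPS18B (0.03) and MRPS35 (-0.11). The differences of MRPL4 (-0.08) and MRPS26 (-0.05) were lost there. On the log2(TPM + 1) scale they turned for MRPL2 (-0.21), MRPL4 (-0.24) and MRPS26 (-0.35) in A549 3D, for MRPL9 (-0.08), MRPL33 (-0.23) and MRPL51 (-0.19) in MDA-MB-231 3D, and for MRPS36 between lines (-0.13 in 2D and -0.42 in 3D). Over all members, that scale called lower 8 of the 24 higher in A549 3D and 1 of the 45 in MDA-MB-231 3D. Between lines it called lower 16 of the 38 higher in A549 in 2D and 14 of the 26 in 3D. With the GC and length trend removed, 5 of those 38 and 3 of those 26 were called lower. In MDA-MB-231 3D that removal turned 3 higher and 3 lower calls. The cause was not tested.

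With 1 library left out, higher calls ran from 17 to 28 in A549 3D and 43 to 47 in MDA-MB-231 3D, and lower calls from 19 to 26 and 12 to 17. The medians ran from -0.10 (without A549 3D replicate 3) to 0.03 in A549 and from 0.34 to 0.40 in MDA-MB-231. For the difference the calls ran from 7 to 9 and 35 to 47, with medians of -0.40 to -0.30. Between lines they ran from 36 to 40 and 22 to 27 in 2D (0.13 to 0.20), and from 22 to 29 and 35 to 37 in 3D (-0.19 to -0.06). Same-numbered replicates correlated by -0.323 to 0.152, with 2 of 18 pairs over 0.1, so no pairing by number was detected. With 3 libraries per group these correlations cannot settle whether same-numbered samples were handled together. With a replicate block the 3D calls were 23 higher and 20 lower for A549 and 45 and 15 for MDA-MB-231, with 8 and 40 for the difference, 38 and 22 between lines in 2D and 25 and 36 in 3D. The wide spread of A549 3D libraries makes small changes there uncertain, because a spread shared by all groups can understate it. MRPL2, MRPL4, MRPL21, MRPL28 and MRPS34 were called higher in A549 3D although their libraries overlapped between cultures.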
